A study of Mus musculus with 22 samples.

Results

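Alveolar macrophages were taken from the tissue libraries of a single-cell RNA study of mice, as barcodes whose own transcripts met a rule. Barcodes label the droplets of a library, each meant to hold a single cell, and transcripts were counted by their unique molecular identifiers (UMIs). A member had at least 200 detected genes and at most 25% mitochondrial UMIs (a passing barcode), a UMI of Lyz2 and UMIs of at least 3 of the 7 genes Ear1, Ear2, Marco, Chil3, Siglecf, Krt79 and Atp6v0d2. It also had 0 UMIs of 5 genes of other cells, C1qa, Gpnmb, Cd79a, Cd3e and Retnlg. The rule found 6246 members among 93055 passing barcodes (6.71%) in 11 tissue libraries, out of 95843 passing of 179929 barcodes in the 22 libraries of the series. In the 11 blood libraries, 10 of sorted ZsGreen-positive circulating cells (ntCZC) from wt, het and null mice of 551 to 649 days and 1 of blood mononuclear cells (PBMC) from a wt male of 120 days, 0 of 2788 passing barcodes met the same rule, which allows a share of up to 0.108% and covers counting error only.

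Every tissue library was a pool of 5 organs (lung, liver, kidney, stomach, and epididymis in males or uterus in females) from Prom1-CreERT2;Rosa26ZSG mice, which carry a tamoxifen-inducible Cre recombinase under the promoter of the stem cell gene Prom1 and a ZsGreen reporter, and whose sodium leak channel gene Nalcn was wild type (wt), heterozygous (het) or null. The 5 wt libraries came from males of 571, 571 and 608 days (replicates 1 to 3) and females of 611 and 654 days (replicates 4 and 5), the 2 het libraries from males of 551 days, and the 2 null libraries from a male of 552 days (replicate 2) and a female of 611 days (replicate 3). Replicate 3 of null took its genotype from its strain entry, since its title names none. Another 2 libraries had titles and strain entries that differ on the genotype, so they entered no comparison of genotypes. That of 610 days is het by its title and null by its strain, and so carries a deleted allele by either, and that of 647 days is null by its title and has no Nalcn allele in its strain entry. The authors describe the Nalcn allele as conditional, deleted by Cre recombination, so het and null name the genotype of the mice. Whether the members themselves had lost Nalcn was not tested. The labels name no animals, so p-values measure only the spread between libraries. Hashtag antibodies had marked the organs, but hashtag counts were not analysed here and members carry no organ label.

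Alveolar macrophages live in the air spaces of the lung, where they take up inhaled particles, dead cells and spent surfactant, the lipid and protein film that keeps alveoli open. They depend on the growth factor GM-CSF, whose signal sustains the nuclear receptor PPAR gamma and with it the genes for lipid handling. In mice they are known for the lectin SiglecF (Siglecf), the scavenger receptor Marco, the chitinase-like protein Ym1 (Chil3) and the eosinophil-associated ribonucleases Ear1 and Ear2, and for little MHC class II compared with macrophages of other tissues.

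Ear1 and Ear2 are near-identical neighbours, and their sequences are shown because both count toward the rule and reads could be split between them. The lines below give 250 bases before and 50 after each start site, 5′ to 3′, from RefSeq on GRCm38.p6: Ear1 at chr14:43819590-43819889 on the minus strand, at the start of its shorter transcript (a longer one starts far upstream in GENCODE), and Ear2 at chr14:44102404-44102703 on the plus strand. Capitals mark the 6 bases of each window that differ from, or have no partner in, the other.
Ear1: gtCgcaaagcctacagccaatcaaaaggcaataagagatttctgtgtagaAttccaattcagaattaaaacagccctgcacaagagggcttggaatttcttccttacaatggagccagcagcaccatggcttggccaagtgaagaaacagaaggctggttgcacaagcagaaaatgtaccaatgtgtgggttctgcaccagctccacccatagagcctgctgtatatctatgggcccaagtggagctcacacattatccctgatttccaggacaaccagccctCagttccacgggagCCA
Ear2: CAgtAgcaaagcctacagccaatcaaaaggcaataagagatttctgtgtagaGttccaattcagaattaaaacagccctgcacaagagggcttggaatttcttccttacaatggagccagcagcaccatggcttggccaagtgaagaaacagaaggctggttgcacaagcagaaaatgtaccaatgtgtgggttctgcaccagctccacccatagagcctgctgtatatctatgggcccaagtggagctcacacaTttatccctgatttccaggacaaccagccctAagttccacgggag
Of 297 aligned promoter bases 294 were identical (99.0%), and of the last 300 bases of the transcripts, where 3′ libraries read, 98.7% were. Levels of Ear1 relative to Ear2 are therefore uncertain.

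The number of members per library ran from 6 (wt replicate 5) to 819 (null replicate 3) among the libraries with a genotype. The wt libraries held 165, 482, 536, 693 and 6 members, the het libraries 406 and 104, and the null libraries 742 and 819. Wt replicate 5, with 6 members, entered the counts of members but no test of genes, which used 3947 members of 8 libraries with at least 20 each. Median UMIs per member ran from 1603 (null replicate 2) to 11103 (wt replicate 1), and median mitochondrial shares from 5.97% to 12.1%. Transcripts of the sex chromosomes matched the labelled sex of the tissue libraries except null replicate 3. In that library, labelled female, 6127 of 9364 passing barcodes held Xist alone but 488 held a Y-linked transcript alone, as did 35 of its 320 C1q-positive macrophages. Among its members 778 of 819 held Xist alone, 10 held both Xist and a Y-linked transcript and 0 held a Y-linked transcript alone. The main counts below are given with and without this library. Of the members 276 (4.42%) had a barcode sequence that also occurred among all barcodes of another library of the series, and members of 2 libraries shared at most 1 barcode in any of 55 pairs of libraries, 4 in all. Nalcn itself gave 1 UMI among 23308690 member UMIs, so the targeted gene could not be checked in these cells, and Prom1 gave 125 UMIs.

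The genes of the rule were present in the members of every library by construction, and their levels are a description with no test. Levels are given as CPM, the summed UMI count of a gene over the cells of a library, scaled so that every library has the same total. Over the 8 libraries, lowest, median and highest CPM were 5284, 7536 and 9730 for Chil3, 629, 742 and 832 for Ear1, and 94.5, 117 and 134 for Siglecf. Marco, a scavenger receptor for particles and bacteria, spread more, from 141 in wt replicate 2 over a median of 404 to 494 in wt replicate 3. The keratin gene Krt79 ran from 239 in wt replicate 2 to 791 in het replicate 2, and Atp6v0d2, a subunit of the proton pump that acidifies lysosomes, from 444 to 721 CPM. Wt replicate 2 was thus lowest for Chil3, Marco and Krt79 and highest for Ear1.

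**Figure D1:**
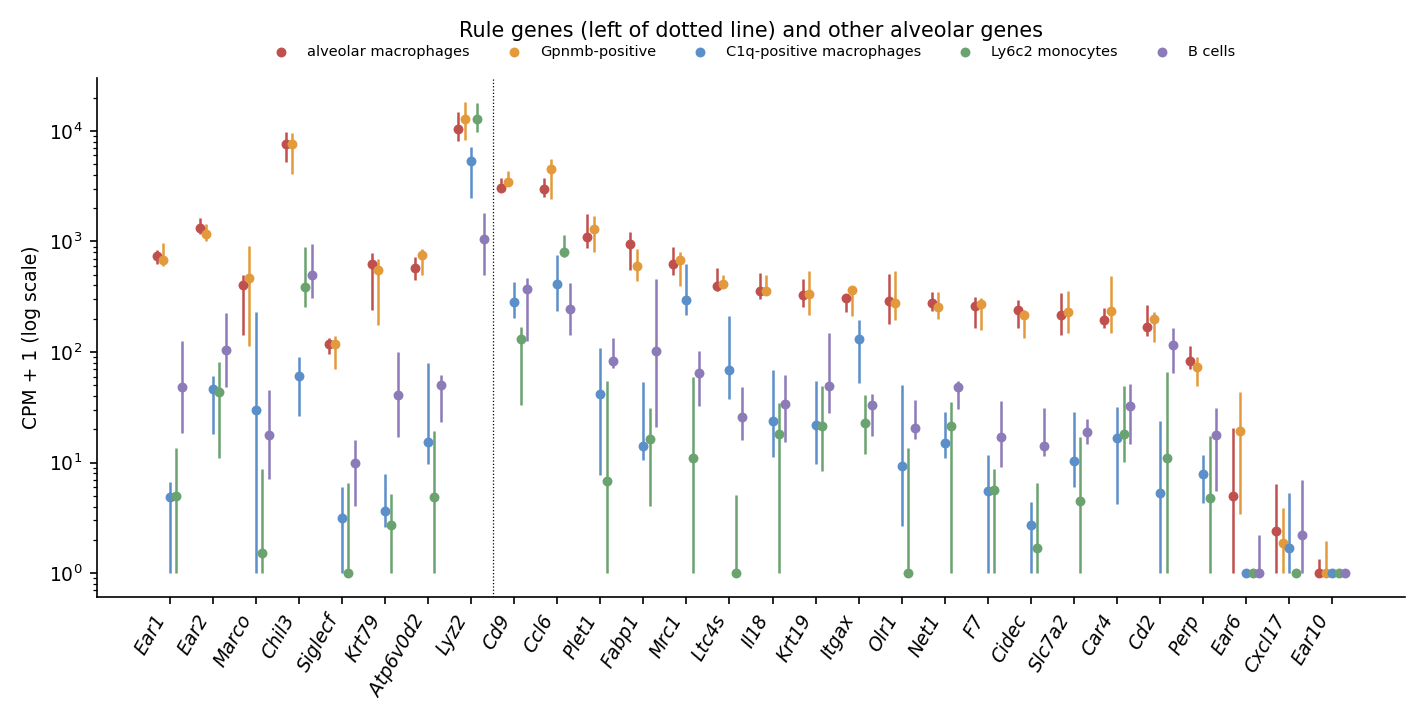
Level of the 8 genes of the rule (left of the dotted line) and of other alveolar macrophage genes (right) as CPM + 1 on a log scale, in alveolar macrophages, Gpnmb-positive barcodes, C1q-positive macrophages, Ly6c2 monocytes and B cells. Points are medians and lines run from the lowest to the highest library; Plet1 in alveolar macrophages runs from 865 to 1763 CPM, above every library of C1q-positive macrophages (6.76 to 107 CPM).

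Most members were well inside the rule. Of 6246, 5378 held 4 to 7 of the 7 genes and 868 held exactly 3. The 1029 barcodes with exactly 2, just outside, had 1132 CPM of Plac8 and 132 of Ly6c2, both genes of monocytes, against 473 and 20.6 CPM in the members with exactly 3 and 99.9 and 14.2 CPM in those with 4 to 7. In null replicate 2, the shallowest library, 256 of 742 members held exactly 3. For Plet1 the barcodes with exactly 2, exactly 3 and 4 to 7 genes had 212, 758 and 1234 CPM, and for Fabp1 82.6, 464 and 966 CPM. The zero-UMI conditions took away more than the edge did. Without them 11376 barcodes would have met the rule, and 5130 (45.1%) were left out, 3954 of which held a Gpnmb UMI and 1581 of which were lost for a single UMI of Gpnmb alone. The barcodes left out had more UMIs, with a median of 4715 against 3028 in the members with 4 to 7 genes, and in wt replicate 1, whose members had the most UMIs, 554 were left out for 165 kept.

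The label was set beside alveolar macrophage genes that the rule did not use, from a list chosen with earlier results of these data known. Of the list of 20, 18 could be tested against C1q-positive macrophages of the same libraries, and all 18 were higher in members. Pparg and Csf2ra, also planned as alveolar genes, were kept in another list, of growth factor receptors and transcription factors. There Pparg was higher in members and Csf2ra near equal, as given below. Among them Ear6, with 107 UMIs in members and 0 in C1q-positive macrophages, passed the count filter through members alone. These values describe the members and are no independent check of the label. C1q-positive macrophages were passing barcodes with Lyz2, C1qa, C1qb and C1qc and fewer than 3 of the 7 alveolar genes. They too had to have 0 UMIs of Gpnmb, Cd79a, Cd3e and Retnlg. Ear10 and Cxcl17 did not pass the count filter, and Ear10 had a median of 0 CPM in members. Eosinophils share the Ear genes and Siglecf, and of 4 of their other genes Epx and Ccr3 were at 0 UMIs in members of all 8 libraries, while Prg2 reached at most 1.08 CPM and Il5ra 1.02 CPM. The summed level of 4 Kupffer cell genes was 1.08 to 19.9 CPM and that of 5 monocyte genes 123 to 454 CPM. Genes of other cells of the lung were read as well. The 4 club cell genes (Scgb1a1, the main secretory protein of airway club cells, and others) summed to 68.8 to 11066 CPM, 4 haemoglobin genes to 32.6 to 12000 CPM, and 4 detected neutrophil genes to 46.0 to 558 CPM. Scgb1a1 was also read in B cells of these libraries, at 138 to 15490 CPM, and its part in the results below was not tested.

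Surfactant transcripts (Sftpc, Sftpa1, Sftpb and Sftpd), made by alveolar type 2 cells, were compared between members and B cells of the same library since B cells should lack them and show the level of free RNA. Per library the log2 ratio of members over B cells was 1.89, 1.48, 1.35 and −0.48 in wt replicates 1 to 4, 1.98 and 0.54 in het, and 2.37 and −2.51 in null replicates 2 and 3. Members were higher in 6 of 8 libraries, and the mean of 0.83 did not pass an exact two-sided sign-flip permutation test (p = 0.195, smallest possible 0.00781). Without null replicate 3 the mean was 1.30 (exact permutation p = 0.0313).

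Alveolar macrophages made up a share of passing barcodes that varied widely within wt. The share was 2.78%, 2.64%, 9.57%, 5.30% and 2.09% in wt replicates 1 to 5, 5.41% and 2.57% in het, and 8.52% and 8.75% in null. Both null libraries lay above 4 of the 5 wt libraries and below wt replicate 3. Het and null together, called deleted from here on, averaged 6.31% and wt 4.48%, a difference of 1.84 percentage points (exact two-sided permutation test, p = 0.437, adjusted p = 0.857 over the 2 measures of abundance, smallest possible p = 0.00794). A share of a pool depends on how much lung went into it, so members were also counted per aerocyte, the Car4-positive capillary endothelial cell found in lung alone.

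The ratio of members to aerocytes was 1.23, 1.17, 12.5 and 7.29 in wt replicates 1 to 4, 1.92 and 2.04 in het, and 18.1 and 3.43 in null. The lowest and the second highest values were both wt, and the 2 null libraries differed more from each other than the genotype means did. The difference of the mean log2 ratio was 0.22 (exact permutation p = 0.857, smallest possible 0.0286). It turned to −0.26 without wt replicate 1, −0.29 without wt replicate 2 and −0.51 without null replicate 2, and with the zero-UMI conditions left out of the rule to −0.60 (exact permutation p = 0.486). The difference in share also turned, to −1.89 points, without those conditions (exact permutation p = 0.5). Without null replicate 3 the differences were 1.02 points (exact permutation p = 0.643) and 0.29 (exact permutation p = 0.857). No direction by genotype can be given from these counts.

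**Figure D2:**
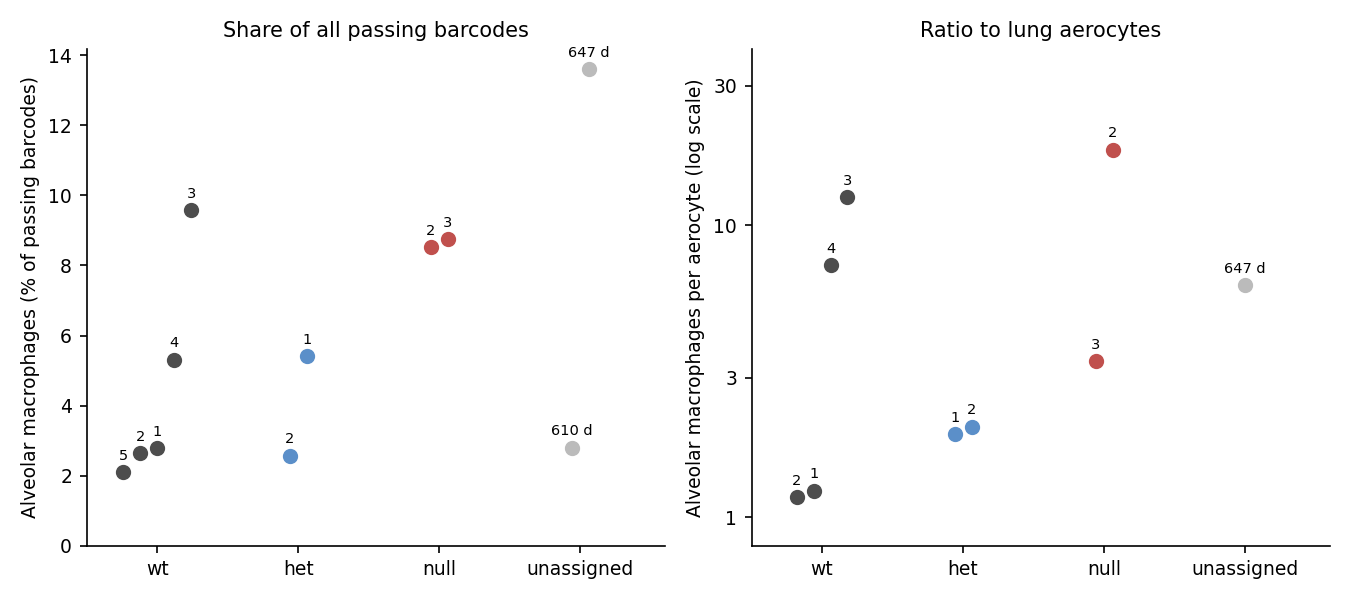
Alveolar macrophages in each tissue library by labelled Nalcn genotype, left as percent of passing barcodes and right as a ratio to lung aerocytes on a log scale (libraries with at least 20 aerocytes); each point is a library, numbered by replicate, and grey points are the libraries without a genotype. The wt libraries run from 2.09% to 9.57% and enclose both het and both null values.

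To describe what set these cells apart, members were compared with C1q-positive macrophages of the same 8 libraries on summed UMI counts (edgeR quasi-likelihood test with the library as block). Of 11221 genes tested 4201 passed at an adjusted p under 0.05 (37.4%), 2171 higher (19.3%) and 2030 lower (18.1%) in members, and without null replicate 3 there were 3645. Both classes had been chosen by some of their transcripts, and genes that go with those transcripts had to differ, so the counts describe the cells chosen. The genes of either rule were left out of the test. C1q-positive macrophages could come from any organ of the pools and carry no organ label. They held genes of liver and body cavity macrophages, at levels that varied widely between libraries, as the values below show. The comparison therefore cannot be taken as one within the lung.

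The tested genes of the list of other alveolar genes, which leaves out Csf2ra, were all higher. These were 18 of 18, with a median log2 difference of 3.92 (3.88 with Ear6, which had 0 UMIs in C1q-positive macrophages, at its lower bound), against −0.01 over all genes. Cidec, which builds large lipid droplets, had 166, 237 and 293 CPM (lowest, median, highest) in members against 0, 1.74 and 3.45 in C1q-positive macrophages, a log2 difference of 7.04 (SE 0.24, adjusted p = 7.7e-10). The fatty acid-binding protein gene Fabp1 had 556, 949 and 1205 CPM against 9.57, 13.2 and 52.5 (log2 5.45, SE 0.28, adjusted p = 1.1e-08). The lowest library of members lay above the highest of C1q-positive macrophages for both. Higher too were Plet1, a surface protein of alveolar macrophages (5.04), the clotting factor gene F7 (5.14), the receptor gene for oxidised low-density lipoprotein Olr1 (4.59), the cytokine gene Il18 (3.82) and the tetraspanin gene Cd9 (3.41). The smallest differences of the list were those of the integrin gene Itgax (1.13) and the mannose receptor gene Mrc1 (0.98), which C1q-positive macrophages also express.

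Beyond the list, Kcnn3, a calcium-activated potassium channel gene, had 50.1, 69.0 and 85.1 CPM in members and 3 UMIs in all in C1q-positive macrophages, a ratio of 162 (95% counting interval 55.3 to 787). Next in size were Gal, which encodes the neuropeptide galanin (log2 6.35), Cpne5, a calcium-dependent phospholipid-binding protein gene (6.10), the growth factor gene Ereg (5.53), the lysosomal cation channel gene Mcoln3 (5.51), Vstm2a (5.35) and Flvcr2, a choline transporter gene (5.25). All of these were higher in members in 8 of 8 libraries. Ereg varied most among them, from 24.2 to 205 CPM.

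All 4 genes of the Kupffer cell list, the macrophages of the liver, were lower in members (median log2 −7.82), as were the 4 genes of the large peritoneal macrophage list (−3.53), and some of these fitted values rest on counts near 0 in members. Cd5l had at most 1.81 CPM in members against 24.7 to 775 in C1q-positive macrophages (log2 −8.63), Clec4f, a Kupffer cell receptor gene, at most 0.781 against 0.433 to 294 (−7.39), and Prg4, a gene of large peritoneal macrophages, at most 1.56 against 0 to 427 (−7.58). Among the other genes lowest in members, Retnla (−8.41), Folr2 (−7.74), the chemokine gene Ccl8 (−7.71) and the collagenase gene Mmp13 (−7.08) were lower in 8 of 8 libraries. Vsig4 had 3 UMIs in members and 481 in C1q-positive macrophages, a ratio of 376 (95% counting interval 128 to 1828), and Cd209f 1 against 362 (848, 151 to 33587).

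Among growth factor receptors and transcription factors, 9 of 20 genes were higher and 5 lower (median log2 0.04). Bhlhe41 (2.39, SE 0.28), Pparg (2.35, SE 0.17) and Bhlhe40 (2.26, SE 0.18), transcription factor genes of alveolar macrophage identity and self-renewal, were higher in 8 of 8 libraries, as was Csf2rb, the signalling chain of the GM-CSF receptor (1.90). Pparg had 63.3, 82.8 and 90.8 CPM in members against 7.0, 14.2 and 23.1. The ligand-binding chain gene Csf2ra was near equal, with 154 to 250 CPM in members and 138 to 271 CPM (log2 0.05, adjusted p = 0.84). The transcription factor gene Maf (−3.11), which restrains macrophage self-renewal, and the CSF-1 receptor gene Csf1r (−2.98) were lower in every library.

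Lipid handling genes were higher in 13 and lower in 2 of 22 (median log2 0.55). Abcg1, which exports cholesterol, had 861 to 1200 CPM in members against 71.7 to 128 (log2 3.47, SE 0.14), the lipoprotein lipase gene Lpl 1551 to 3084 against 189 to 634 (2.45, SE 0.16), and Plin2, which coats lipid droplets, 960 to 1579 against 153 to 311 (2.32, SE 0.15). Acot1 (2.48) and Nceh1, a cholesteryl ester hydrolase gene (2.43), were higher as well. Apoe, the main apolipoprotein of tissue macrophages, went the other way by far, at 143 to 390 CPM against 5709 to 23043 (log2 −5.19, SE 0.16, adjusted p = 4.1e-10). No library of either class overlapped with the other for these genes.

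Lysosomal genes did not move as a set, with 3 of 20 higher and 6 lower (median log2 −0.19). The protease gene Ctsk (4.62), best known from bone-resorbing osteoclasts, and Ctsd (1.62) were higher, and Lgmn (−2.18) and Ctsb (−1.37) lower. Among iron and redox genes 6 of 12 were higher and 3 lower (median 0.37). The glutathione reductase gene Gsr (1.89) and Txn1 (1.26) were higher, while the iron exporter gene Slc40a1 (−3.93) and Slc11a1, which moves iron out of phagosomes (−3.71), were lower in every library.

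**Figure D3:**
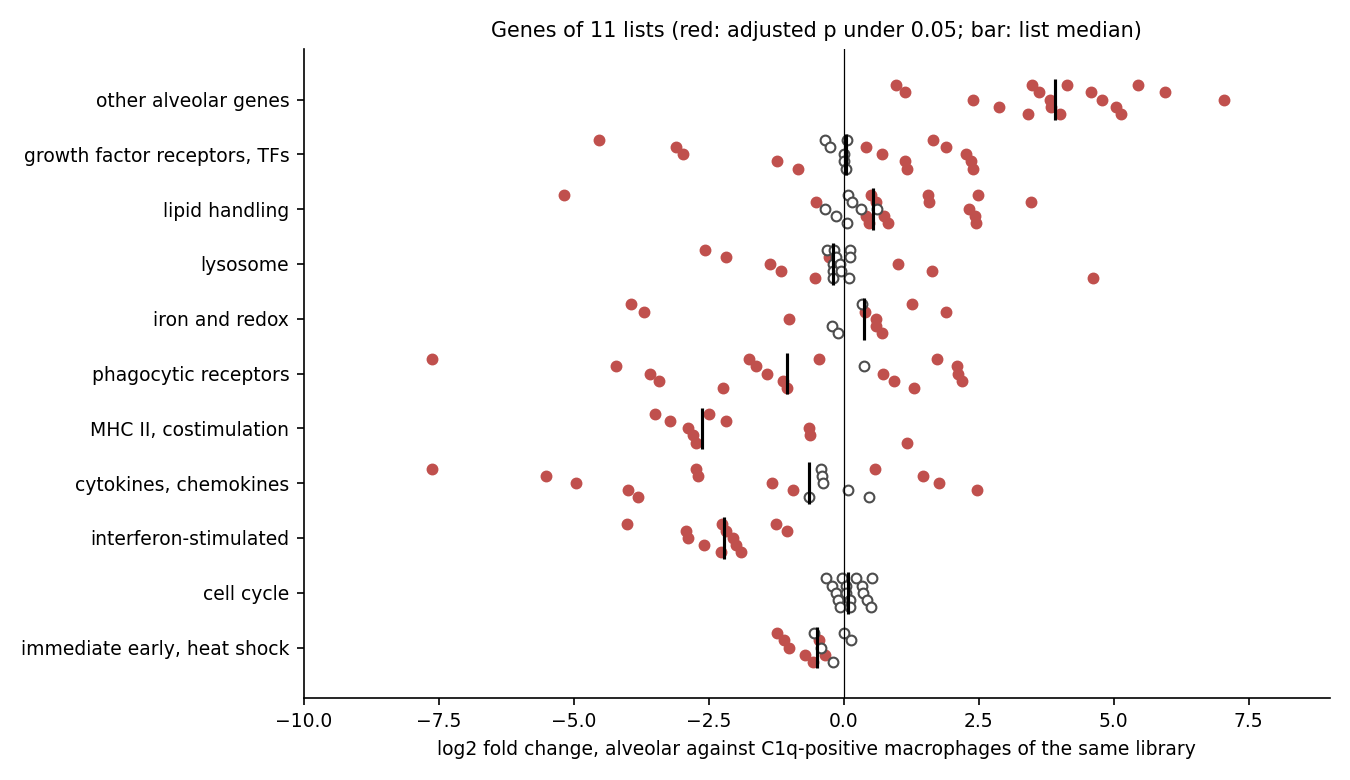
Log2 fold change of members against C1q-positive macrophages of the same library for each gene of 11 lists, red where the edgeR adjusted p is under 0.05 and open where it is not, with the median of each list as a black bar. Other alveolar genes lie at 0.98 and above, and all 12 interferon-stimulated genes lie below 0.

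Genes by which macrophages present antigen and answer interferon were lower in members. MHC class II and costimulation genes were lower in 9 and higher in 1 of 10 (median log2 −2.62). H2-Eb1 had 436, 472 and 769 CPM against 1937, 4899 and 7430 (log2 −3.22, SE 0.19), Ciita, the master regulator of these genes, differed by −2.89, the costimulatory genes Cd40 by −3.50 and Cd86 by −2.79, and Cd80 was the exception (1.16). All 12 interferon-stimulated genes were lower (median −2.22), among them Ifit2 (−4.02), Oasl2 (−2.92) and the transcription factor gene Irf7 (−2.28). The highest library of members, wt replicate 2, had 9.68 CPM of Ifit2, below the lowest of C1q-positive macrophages (10.3).

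Receptors for uptake and sensing split, 7 higher and 11 lower of 19 (median log2 −1.05). The lectin receptor gene Clec4n (2.18), the receptor gene for dying cells Mertk (2.12) and the toll-like receptor gene Tlr2 (2.09) were higher. The haemoglobin scavenger receptor gene Cd163 had 1 UMI in members and 158 in C1q-positive macrophages, a ratio of 370 (95% counting interval 65.5 to 14711), and Stab1 (−4.23), Msr1 (−3.60) and the integrin gene Itgam (−3.42) were lower. Cytokine and chemokine genes were higher in 4 and lower in 9 of 19 (median −0.64). The neutrophil chemokine gene Cxcl3 (2.46), the interleukin-1 antagonist gene Il1rn (1.76) and Il1a (1.46) were higher, and Pf4 (−5.51), Il10 (−4.95), Ccl7 (−4.0) and Cxcl16 (−3.81) lower. Immediate early and heat shock genes were lower in 7 of 12 (median −0.50), with Hspa1a at −1.24. None of 16 cell cycle genes passed (median 0.08), and none of the 4 surfactant genes did.

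Monocytes are the blood-borne cells from which tissue macrophages can be replaced, so members were also compared with Ly6c2 monocytes of the same 8 libraries. These were passing barcodes with Ly6c2, Ccr2 and Lyz2 and fewer than 3 of the 7 genes. They also had 0 UMIs of C1qa, Gpnmb, Cd79a, Cd3e and Retnlg. Of 10587 genes tested 3755 passed (35.5%), 2085 higher (19.7%) and 1670 lower (15.8%) in members, and without null replicate 3 there were 3417. The same 18 other alveolar genes were all higher (median log2 4.88, or 4.42 with Ear6 at its lower bound, against 0.11 over all genes). The 4 club cell genes, markers of another cell of the lung, were higher in members as well (4 of 4, median log2 2.08), and their part in the comparison was not tested. Ltc4s, the leukotriene C4 synthase gene, had 358, 394 and 575 CPM in members and 0, 0 and 4.10 in monocytes (log2 7.08, SE 0.25, adjusted p = 4e-14). Mrc1, the smallest difference against C1q-positive macrophages, was 5.21 here. Slc7a2, an arginine transporter gene, differed by 5.99.

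Lipid handling genes were higher in 14 and lower in 3 of 22 against monocytes (median 1.1), with Lpl at 5.14 and Abcg1 at 4.12 and with Apoe again lower (−2.47). Lysosomal genes were higher in 13 of 20 and lower in 1 (median 0.42), led by Ctsk (4.66) and Ctsd (3.20). Of 16 cell cycle genes 5 were higher and 1, Hmgb2, lower (median 0.96). Of the monocyte list, whose Ly6c2 and Ccr2 had chosen the monocytes and were left out, 1 of 3 genes tested was lower, Plac8 (−4.60), and 2 did not pass (list median −0.57). The genes lowest in members by size were the clotting factor gene F13a1 (−6.22), Ms4a4c (−5.59), Ifitm6 (−5.55), the neutrophil and monocyte surface gene Cd177 (−5.50), the pyrin gene Mefv (−5.46) and the matrix gene Vcan (−5.19). Thbs1, which encodes thrombospondin 1, had 36.4 to 213 CPM in members against 1653 to 3401 (−4.90). All 12 interferon-stimulated genes were lower here too (median −2.68), and MHC class II and costimulation genes were lower in 3 and higher in 1 of 10 (median −0.22). The 2 comparisons share the members, so their values are set side by side and give no independent support to each other.

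Within the members, detection per cell was compared after thinning each cell to 1000 UMIs, which kept 3825 of 3947 members and left out 122. Chil3 was found in 98.6% of members in the median library (86.8% to 99.6%), and Ccl6, a chemokine gene, in 89.4%. In B cells, which should lack them, Chil3 was found in a median of 9.88% and Ccl6 in 9.13%. Lpl (77.3%), Ear2 (69.3%), Plet1 (66.2%) and Abcg1 (64.3%) were found in most members, and Fabp1 in 47.5%. Siglecf at 12.4% and Pparg at 8.03% were near the limit of detection per cell, and unthinned they were found in 41.5% and 29.3% of members. In B cells the thinned shares of Siglecf and Pparg were 0.707% and 0.329%.

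Cxcl2, which encodes a chemokine that draws neutrophils, was the most uneven of the genes followed. It was found in 35.6% of thinned members in the median library and in 18.4% to 64.9% over libraries, and its variance over cells was 5.87 times its mean, against 2.35 for Chil3 and 1.02 for Siglecf. B cells showed 7.39% (1.94% to 24.9%) with a ratio of 5.84, so part of this spread was also read outside the members. Among 10 cell cycle genes, 2 or more were found in 3.11% of members (1.54% to 5.83%), against 2.53% of C1q-positive macrophages, 0.385% of Ly6c2 monocytes and 3.33% of B cells. These ranges overlap, and no test was made of them.

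**Figure D4:**
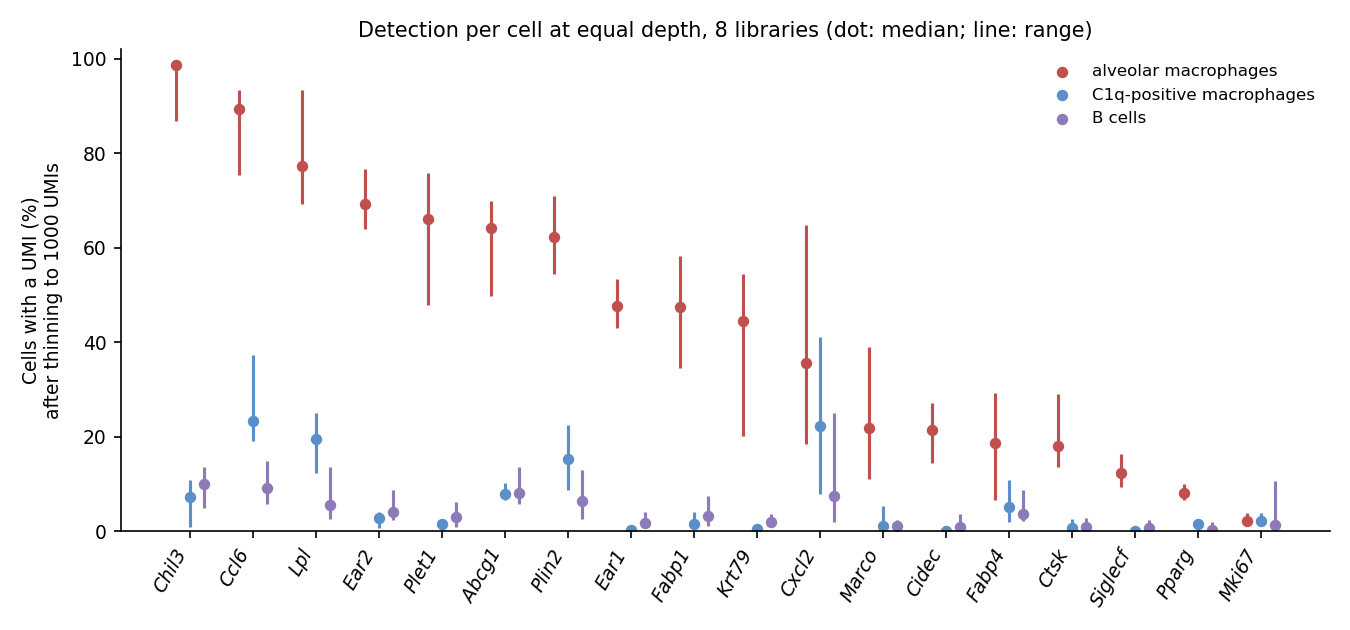
Percent of cells with a UMI of each gene after thinning to 1000 UMIs, in alveolar macrophages, C1q-positive macrophages and B cells. Points are medians and lines the range over 8 libraries; Cxcl2 runs from 18.4% to 64.9% of alveolar macrophages.

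The largest set left out by the zero-UMI conditions was compared with the members after its size had been seen. These 3084 Gpnmb-positive barcodes met every other condition and held a UMI of Gpnmb, a glycoprotein gene of lipid-laden macrophages and osteoclasts. They were 12.2% to 71.2% of members and Gpnmb-positive barcodes together per library, lowest in null replicate 2, where members had a median of 1603 UMIs, and highest in wt replicate 1, where they had 11103. Between these the shares did not follow depth throughout, with 15.4% in het replicate 2 at a median of 5006 UMIs per member and 33.2% in wt replicate 3 at 3041, and the part of depth in this share was not tested. In 7 libraries with at least 20 of both, 105 of 11290 genes passed (0.93%), 81 higher (0.717%) and 24 lower (0.213%) in Gpnmb-positive barcodes. In each of these libraries Gpnmb-positive barcodes had more median UMIs than members. The values ran from 2117 against 1603 in null replicate 2 to 15297 against 11103 in wt replicate 1. Genes that go with Gpnmb had to differ by the choice of barcodes, and the part of depth in these calls was not tested. The split turned to 236 higher and 316 lower without the filter on low counts, and was 65 and 57 with at least 3 Gpnmb UMIs.

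Some lysosomal and lipid genes were higher in Gpnmb-positive barcodes and some MHC class II genes lower, and none of these lists had a call in the other direction. Lysosomal genes were higher in 11 of 20 and lower in 0 (median log2 0.41), lipid genes higher in 7 of 22 and lower in 0 (0.26), and MHC class II and costimulation genes lower in 5 of 10 and higher in 0 (−0.40), against a median of −0.01 over all genes. Fabp5, a fatty acid-binding protein gene, had 662, 761 and 2786 CPM in Gpnmb-positive barcodes (log2 1.61, SE 0.18, adjusted p = 0.0014), above the 201 to 428 CPM of members. Ctsk (0.90), the tetraspanin gene Cd63 (0.82), Lipa, the lysosomal acid lipase gene (0.53), and Scd1, which desaturates fatty acids (0.97), were higher in 7 of 7 libraries. Cxcr1, a chemokine receptor gene, differed most among the higher genes with a mean of at least 50 CPM (2.1, SE 0.26, adjusted p = 0.0021). H2-Ab1 (−0.51), H2-Eb1 (−0.46) and Cd74 (−0.40) were lower in 7 of 7, though the call of H2-Eb1 was lost without wt replicate 3, het replicate 1 or null replicate 2. With 500 or more genes and no more than 10% mitochondrial UMIs the calls of H2-Ab1 (adjusted p = 0.055 in edgeR), H2-Aa (0.067) and H2-Eb1 (0.17) were lost, at log2 differences of −0.55, −0.49 and −0.61, and that of Scd1 was lost with at least 3 Gpnmb UMIs (adjusted p = 0.097 in edgeR). Of the other alveolar genes 2 of 18 were higher (Ear6 and Ccl6) and 0 lower, beside 0.717% of all genes tested that were higher. Their median log2 difference was 0.18, against −0.01 over all genes. Scgb3a1, a secretory gene of airway club cells, had at most 7.40 CPM in Gpnmb-positive barcodes, and 1059 CPM in members of wt replicate 1 but 1.36 to 14.1 in members of the other libraries compared (log2 −5.11, adjusted p = 0.034 in edgeR). This call rested on single libraries and on the tool: the log2 difference was −1.46 without wt replicate 1 (adjusted p = 0.30 in edgeR), and the call was also lost with DESeq2, without the library block, and on leaving out wt replicate 3 or 4, het replicate 1 or null replicate 2. Without het replicate 1 the count of all genes that passed was 62, without null replicate 2 it was 61 and without null replicate 3 it was 84. Without the library block it was 1, so the calls above rest on the comparison within libraries.

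Gpnmb itself, a gene of the rule that was looked at by genotype after its values had been seen, is described here with no test. Summed over members and Gpnmb-positive barcodes, it had 230, 710, 166 and 148 CPM in wt replicates 1 to 4, against 143 and 51.9 in the het and 109 and 115 in the null libraries. The groups did not overlap, with the highest deleted library, het replicate 1, just below the lowest wt, replicate 4. They did overlap with at least 4 of the 7 genes and under the stricter barcode filter. The library of 610 days, het or null by its labels, had 226 CPM, above wt replicates 3 and 4, and that of 647 days had 184 CPM. The difference of the mean log2(CPM + 1) was −1.35, and it ran from −0.85 without wt replicate 2 to −1.60 without wt replicate 4.

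Gene expression of members was compared between genotypes to ask whether Nalcn loss in the mice went with a change in these cells. No gene of 10954 passed in null against wt (0 called, 0.0%), het against wt (0 called, 0.0%) or deleted against wt (0 called, 0.0%) in edgeR at an adjusted p under 0.05. At an unadjusted p under 0.05 there were 300, 644 and 509 genes. DESeq2 called 2, 26 and 17. Without null replicate 3 edgeR again called 0 in each contrast, with 313, 607 and 503 genes at an unadjusted p under 0.05. Genes of alveolar macrophage identity gave no call. Of the 18 other alveolar genes 0 passed in any contrast, the median log2 difference of deleted against wt was −0.01 against −0.02 over all genes, and deleted and wt libraries overlapped for each of them. Chil3 had 7513, 5284, 7984 and 9730 CPM in the wt libraries, against 7170 and 9083 in the het and 6793 and 7558 in the null libraries.

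The smallest p in deleted against wt was that of Cd200, a ligand that restrains myeloid cells. It had 56.5, 36.1, 47.6 and 47.2 CPM in the wt libraries, against 20.5 and 16.3 in the het and 22.6 and 22.5 in the null libraries. The log2 difference was −1.20 (SE 0.18) and did not pass in edgeR (adjusted p = 0.81), while it passed with DESeq2 (adjusted p = 0.048). Inhba, which encodes a chain of activin A, had 84.8, 56.1, 249 and 59.5 CPM in the wt libraries, against 21.4 and 19.9 in the het and 10.2 and 6.81 in the null libraries (−3.04, SE 0.50, adjusted p = 0.81 in edgeR and 7.3e-09 in DESeq2). All 4 deleted libraries lay below all 4 wt libraries for both genes. Both also passed in edgeR without the filter on low counts and with the replicate number as a block, and Inhba without wt replicate 3 (adjusted p = 0.037 in edgeR). Libraries of the 2 groups did not overlap for 341 of 10954 genes (3.11%), the background for such a separation.

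Cd200 was read at a like level in B cells, at 25.3 to 54.6 CPM (median 35.8 against 29.4 in members), and Inhba at 0 to 59.0 (median 4.77 against 38.8). Whether B cells make these transcripts themselves was not tested, so their levels give no measure of free RNA for these genes. The other genes with the smallest p, Meis2 (deleted against wt), and Sparc and Cald1 (het against wt), are genes of stromal cells and were also read in B cells. Meis2 had 22.7 to 50.6 CPM in members of wt and 5.43 to 19.1 in members of deleted libraries, and 14.9 to 55.3 CPM in B cells. Sparc, a matrix protein gene, had 30.9 to 50 CPM in members of wt and 7.56 and 14.5 in members of het libraries. In B cells it had 33.3 to 65.7 CPM in wt and 39.7 and 44.6 in het. The log2 difference of Sparc in members was −2.23 (SE 0.32, adjusted p = 0.60 in edgeR and 0.0033 in DESeq2). Cald1, which encodes an actin-binding protein, differed by −1.64 in het (adjusted p = 0.60 in edgeR and 0.023 in DESeq2). In B cells Cald1 had 32.7 to 72.4 CPM in wt and 52.5 and 44.6 in het. B cells of het libraries thus lay within the wt range for Sparc and Cald1 and below it for Meis2. The part of free RNA in these differences was not tested. Meis2 passed with DESeq2 in deleted (adjusted p = 0.012) and in het against wt (adjusted p = 0.016). Meis2, Sparc and Cald1 also passed in edgeR without the filter on low counts and with the replicate number as a block. Ighg2c, an antibody gene, had the second smallest p in null against wt, and 363 CPM in wt replicate 4 against 0 to 9.36 in the other 7 libraries.

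Described as lists, cytokine and chemokine genes had a median log2 difference of −0.76 in deleted against wt with 0 of 17 past the test, and interferon-stimulated genes −0.93 with 0 of 10. Several marker lists of other cells also had medians below 0 in members in this contrast, with 0 genes past the test. The median was −1.01 for 4 of 5 neutrophil genes tested, −1.67 for 4 haemoglobin genes, −1.55 for 2 of 4 dendritic cell genes tested and −0.82 for 3 endothelial genes. In het against wt these medians were −1.64, −2.64, −2.30 and −0.94, beside −0.81 for the cytokine and −0.73 for the interferon list. In null against wt they were 0.03, −0.75, −0.81 and −0.51, beside −0.71 and −0.87. The summed neutrophil genes had 76.4, 558, 553 and 71.8 CPM in wt replicates 1 to 4 and 46.0 to 161 in deleted libraries, with Retnlg at 0 by the rule. Haemoglobin genes summed to 1573 to 12000 CPM in wt and 32.6 to 3314 in deleted libraries, dendritic cell genes to 2.70 to 23.8 and 1.89 to 14.1, and endothelial genes to 89.2 to 215 and 51.6 to 134. The groups overlapped for each of these sums, and their part in the list medians and in Cxcl2 was not tested. Cxcl2 had 1054, 2178, 3260 and 2502 CPM in the wt libraries, against 662 and 706 in the het and 603 and 1009 in the null libraries, without overlap among these 8 (log2 −1.67, SE 0.35, adjusted p = 0.82). The library of 610 days, het or null by its labels, had 1198 CPM, above wt replicate 1. Immediate early and heat shock genes did not overlap for 4 of 12 (Fos, Egr1, Dusp1 and Zfp36), beside 341 of all 10954 genes tested (3.11%). These 4 did not share a direction, since Zfp36 was higher in deleted libraries. Egr1 had 307, 375, 403 and 382 CPM in the wt libraries, against 251 and 257 in the het and 227 and 228 in the null libraries (−0.65, SE 0.15, adjusted p = 0.82). The library of 610 days had 63.7 CPM of Egr1, below all of these, and that of 647 days 294 CPM. Cebpa, a myeloid transcription factor gene, was higher, with 148 to 198 CPM in deleted against 103 to 125 in wt (0.52, SE 0.14, adjusted p = 0.84). The libraries of 610 and 647 days had 182 and 161 CPM of Cebpa, within the deleted range. In the lists of lipid handling (22 tested), lysosomal (20), phagocytic (18), MHC class II (9) and interferon-stimulated (10) genes, 0 separated the groups. Of growth factor receptor and transcription factor genes 2 of 20 did (Spi1 and Cebpa), and of iron and redox genes 1 of 12 (Tfrc). Cell cycle genes did for 1 of 16 (Cdk1), and cytokine and chemokine genes for 1 of 17 (Cxcl2).

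**Figure D5:**
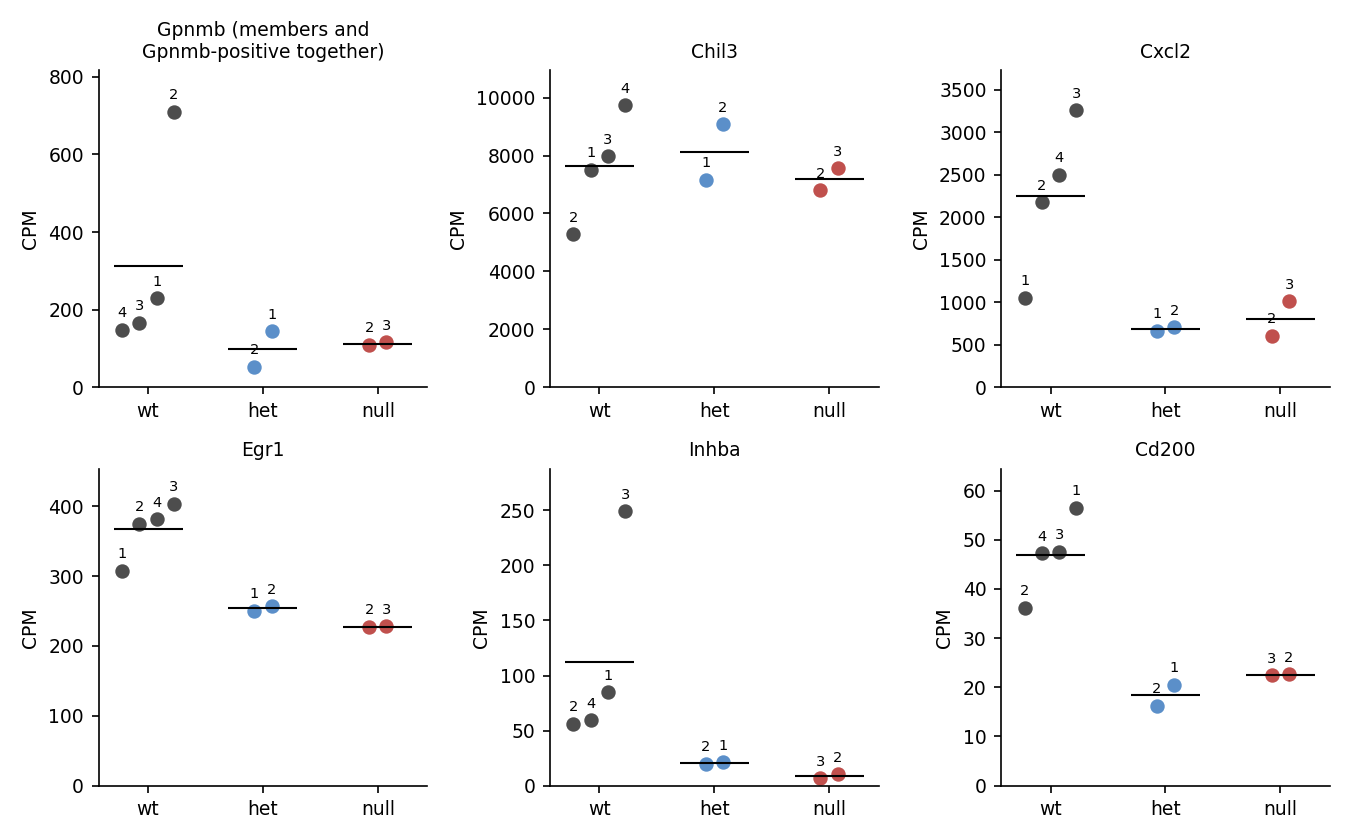
CPM of 6 genes in each tissue library by labelled Nalcn genotype, with Gpnmb over members and Gpnmb-positive barcodes and the other genes over members. Each point is a library, numbered by replicate, and lines are means. The libraries without a genotype are not shown. For Gpnmb, Cxcl2, Egr1, Inhba and Cd200 all deleted libraries shown lie below all wt libraries, and for Chil3 they do not. The groups were separated, in either direction, for 341 of 10954 genes tested (3.11%), and 0 of these genes passed the edgeR test. Gpnmb, a gene of the rule, was not among the genes tested, and its groups overlapped under some alternatives.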

How the data were processed

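The authors made the libraries with 10x 3′ chemistry from pooled, dissociated organs, and per the labels used Cell Ranger (2.1.1) and Seurat with build mm10, while the matrix headers give version 3.0.2. The deposited values were raw UMI counts per gene and called barcode, with no normalization. No doublets were removed in the main analysis. In an alternative the barcodes with the highest Scrublet scores (in scanpy 1.11.5) were left out as doublets. Their number per library was fixed in advance by an expected rate that rises with the number of barcodes. They were 15088 of 93055 passing barcodes (16.2%) and 1198 of 6246 members (19.2%). Members and gene lists were chosen with earlier results of these data known.

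UMI counts were summed per library and class, in libraries with at least 20 cells of it, and tested with the edgeR (4.0.16) quasi-likelihood test (TMM scaling, filterByExpr, Benjamini-Hochberg adjustment over all genes tested). Sex was the covariate between genotypes and the library was the block between classes. Standard errors are the log2 difference over the square root of the F statistic. Single values per library used exact two-sided permutation tests, and intervals at 95% and limits for 0 (3 counts) cover counting error only. DESeq2 (1.42.0) was an alternative. Scripts were checked on simulated counts. Replicates of a group were compared by chi-square, and none were counted as 1.

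Named genes were those of the rule, up to 6 per list with the largest difference from C1q-positive macrophages in the same direction in every library, up to 10 per direction over all genes with a mean of at least 50 CPM, and the 3 with the smallest p per genotype contrast. Others were named after their values were seen, such as Cd9, Il18, Itgax, Mrc1, Csf2rb, Csf2ra, Mertk, Tlr2, Cxcl3, Il1rn, Il1a, Cebpa, Egr1, Lipa, Hmgb2 and the genes followed per cell. Some genes that the rule names are not reported here. Promoters came from RefSeq, where 21 of 27 genes looked up matched.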

Additional observations from a re-analysis of the deposited data

Results flagged for a closer look

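In groups of 4 to 10 libraries, 8 of 89 groups tested held a library far from the others by Dixon's criterion, which chance gives in about 1 of 20 groups. Wt replicate 2 stood apart from the other wt libraries for Gpnmb (710 CPM over members and Gpnmb-positive barcodes), the chemokine genes Ccl2 (242 CPM in members, against 13 to 40.7 in the other wt libraries) and Ccl7 (112 CPM, against 1.08 to 4.54), and the interferon-stimulated genes Ifit2 (9.68 CPM) and Rsad2 (56.1 CPM). Wt replicate 3 stood apart for Inhba (249 CPM), wt replicate 4 for Ighg2c (363 CPM) and wt replicate 1 for the cyclin gene Ccnb1 (11.4 CPM).

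The library of 647 days is null by its title, has no Nalcn allele in its strain entry and entered no comparison. It held the highest share of alveolar macrophages of the 11 tissue libraries (13.6% of passing barcodes, 2172 members).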

How the results depend on the processing

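The counts of genes between genotypes rested on the tool and the design. Null, het and deleted against wt called 2, 26 and 17 genes with DESeq2 and 19, 229 and 128 without the filter on low counts. Leaving out each library gave 0 to 6, 0 to 2 and 0 to 3, with 6 and 3 without wt replicate 1 and 2 without het replicate 2. With the replicate number as a block in place of sex 54, 101 and 71 genes passed. The labels tie replicate numbers to no shared animal or day, so the numbers were not taken to pair libraries. Correlations of deviations from group means ran from −0.09 to 0.45 between same-numbered libraries and from −0.45 to 0.38 between others. They cannot decide pairing, since deviations in a group of 2 libraries mirror each other. The cause of these moves was not tested.

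Against C1q-positive macrophages 2508 genes passed under a barcode filter of 500 or more genes and no more than 10% mitochondrial UMIs, in 7 of the 8 libraries, and against monocytes 2294, in 4 of the 8. Leaving out each library gave 3568 to 4092 and 3097 to 3737. The Gpnmb-positive comparison gave 186 genes with DESeq2, 552 without the filter (236 higher and 316 lower), 173 with at least 4 of the 7 genes and 1 without the library block, and 61 to 128 leaving out each library. The share of members differed between deleted and wt by −1.89 points and the log2 ratio to aerocytes by −0.60 without the zero-UMI conditions, an alternative chosen after seeing the data. The ranges leaving out each library were 1.02 to 3.11 points and −0.51 to 0.85, and with labels permuted within replicate numbers (a replicate block) the exact p-values were 0.417 and 0.833.

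The surfactant ratio was 1.15 without Scrublet doublets (exact permutation p = 0.0469) and 1.13 with the stricter barcode filter (exact permutation p = 0.0313), and 0.61 to 1.30 leaving out each library. The Gpnmb difference was −1.09 with at least 4 genes, −1.26 with the stricter filter, −1.16 for null alone and −1.60 to −0.85 leaving out each library. The replicate block leaves it at −1.35, and no p is given since the gene was chosen after its values were seen. All 1180 values of named genes against C1q-positive macrophages and all 320 against monocytes kept their direction and side of the threshold under the alternatives run. For Gpnmb-positive barcodes 48 of 300 lost their call. Genes of these comparisons had been named for large differences that passed and held in every library, so much of this stability came with the choice. Of 54 values each for the named genes of null, het and deleted against wt, none of which passed, 5, 9 and 10 passed under an alternative, in the same direction, with DESeq2, without the filter, in the replicate block or without wt replicate 1 or 3. Depth limits single-cell detection, from a median of 1603 to 11103 UMIs per member.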

Other observations

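The 2 libraries without a genotype held members as well. In the library of 610 days 121 members made up 2.80% of passing barcodes and had 10837 CPM of Chil3, 851 CPM of Krt79 and 180.0 CPM of Siglecf, each above the highest of the 8 libraries tested. In the library of 647 days the 2172 members had 8184, 753 and 124 CPM. Inhba had 24.4 and 36.3 CPM in these libraries and Cd200 33.7 and 33.3 CPM, between the ranges of deleted and wt libraries for both genes. Cxcl2 had 1198 and 1522 CPM, within the wt range.

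Hmox1, the haem-degrading enzyme gene, varied widely among members, from 95.1 CPM in het replicate 1 to 916 CPM in wt replicate 1. Mki67, a gene of dividing cells, was highest in the het libraries (63.6 and 112 CPM) and had 20.3 to 41.3 CPM in wt and 34.4 and 35.9 CPM in null. These genes were chosen after their values were seen.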
